A study of Homo sapiens with 2 samples.

Results

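Accessible regions in the first 5 Mb of the short arm were described for 17 human chromosomes, namely 1 to 12 and 16 to 20. A region was a member if its midpoint lay under 5 Mb in hg19, and the acrocentric chromosomes were left out because their short arms are largely unassembled repeats. These ends held 685 of the 23612 regions in the list. The comparison interval was 5 to 20 Mb of the same chromosomes, which held 2140 regions, and both intervals were read in steps of 1 Mb counted from the end.

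The cells were GM12878, a human B lymphoblastoid line immortalised by Epstein-Barr virus, taken untreated during exponential growth. ATAC-seq, in which a transposase cuts accessible DNA and adds sequencing adapters, was applied to 50000 cells from each of 2 cultures. Both libraries form 1 group, and the authors deposited 1 list for both. The list gives the position of each region and a whole-number score whose scale no label names, with 1000 as its highest value. The name of the list holds idr, the usual short form of irreproducible discovery rate, a measure of agreement between replicates. No label says whether the score comes from it, and the score is not read here as signal strength. The list holds no values per culture and no counts, so depth is unknown and nothing below was tested over replicates. The spread given is over chromosomes (SD, n = 17), and the 95% intervals cover counting error only.

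A human chromosome ends in telomere repeats, followed by subtelomeric DNA whose duplicated blocks are shared among several ends. Reads from such blocks cannot be placed uniquely, and a short stretch at most ends of hg19 is unsequenced. Inward of these blocks, many short-arm ends lie in light Giemsa bands, the gene-rich and early replicating part of the chromosome. A Giemsa band is a stretch of chromosome seen under the microscope, light or dark by its stain, and named by chromosome, arm (p for the short one) and number.

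The short-arm ends together held 8.06 regions per Mb over 85 Mb, against 8.39 per Mb over the 255 Mb of the inner intervals. The ratio of the densities was 0.960 (0.880 to 1.05), which did not differ from 1 beyond counting error. Without chromosome 16, the densest end, it was 0.906 (0.827 to 0.992), the lowest ratio with 1 chromosome left out. Both intervals are too narrow for these counts, as described below, so they do not settle whether the ratio differs from 1. Over chromosomes the ends averaged 8.06 ± 2.59 regions per Mb and the inner intervals 8.39 ± 2.31 (SD, n = 17). The end was denser on 7 chromosomes, sparser on 9 and equal on 1. The difference averaged -0.333 ± 3.17 regions per Mb (SD, n = 17), with an SE over chromosomes of 0.770. The inner interval of chromosome 18 crosses its centromere, and without this chromosome the ratio was 0.949 (0.868 to 1.04). For reference, the 17 chromosomes held 8.29 regions per Mb over their whole length.

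Single ends differed much more than the sum of them. The densest was that of chromosome 16, with 63 regions or 12.6 per Mb against 5.40 inward of it, a ratio of 2.33 (1.65 to 3.28). All of it lies in 16p13.3, the light band known for the alpha-globin genes HBA1 and HBA2, for AXIN1, a scaffold protein of Wnt signalling, and for CREBBP, a histone acetyltransferase. The end of chromosome 4 followed with 60 regions, or 12 per Mb against 8.53, a ratio of 1.41 (1.02 to 1.93). Those of chromosomes 3 and 9 tied for the third place with 53 regions each. On chromosome 9 this was 1.56 times the inner density (1.10 to 2.19), whereas on chromosome 3 the inner interval was denser still, at 12.3 per Mb against 10.6. The ends of chromosomes 4, 9 and 16 thus stood above their inner intervals by more than counting error, and that of chromosome 3 did not. These intervals are not adjusted for looking at 17 chromosomes. They are also too narrow, since counts varied more than independent placement would give, as described below.

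The sparsest ends belonged to chromosomes 8, 12 and 1. Chromosome 8 held 17 regions or 3.40 per Mb against 7.47, a ratio of 0.455 (0.256 to 0.762). Chromosome 12 held 19 regions or 3.80 per Mb against 9.13, a ratio of 0.416 (0.243 to 0.675). On both, the end was sparser by more than counting error, and on the 12 chromosomes other than these 2 and chromosomes 4, 9 and 16 the interval of the ratio took in 1. These intervals, too, are unadjusted and too narrow. Chromosome 1 held 30 regions or 6 per Mb, yet its inner interval was sparser at 4 per Mb, so its ratio was 1.5 (0.934 to 2.36). A low count at an end therefore did not always go with a low ratio. Across the 17 chromosomes the densities of the end and of the inner interval were weakly related (Pearson r = 0.162, Spearman rho = 0.265, n = 17, a description with no test).

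**Figure D1:**
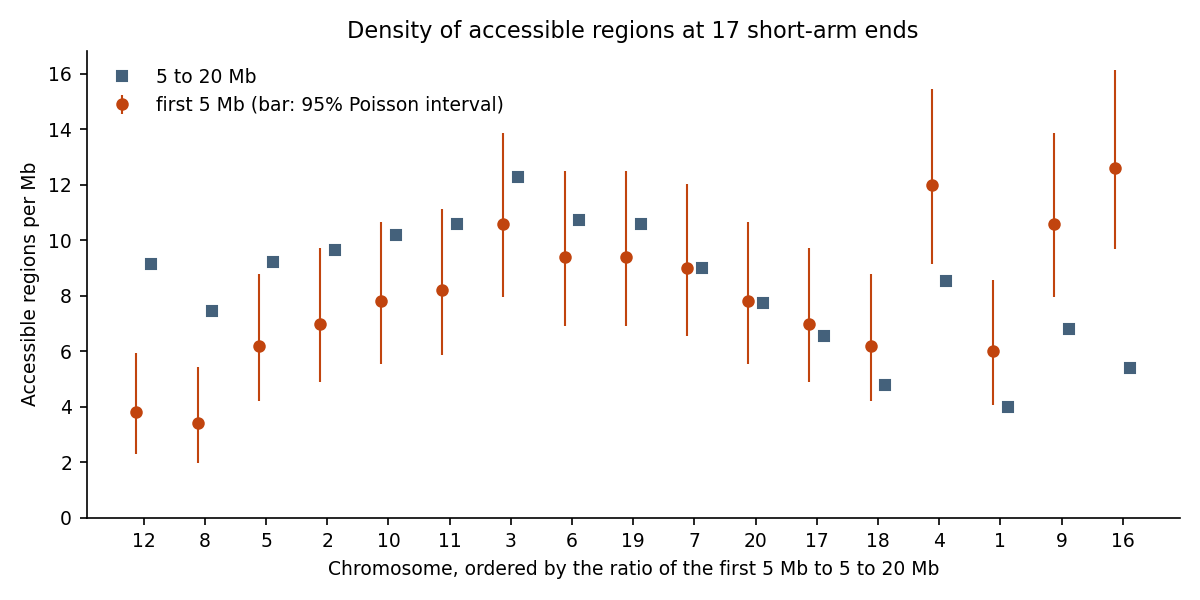
Accessible regions per Mb (vertical axis) in the first 5 Mb (circles, bars are 95% Poisson intervals for counting error) and at 5 to 20 Mb (squares) of 17 chromosomes, ordered by the ratio of the 2. Chromosomes 12 and 8 lie at the left with ratios of 0.416 and 0.455, and chromosome 16 at the right with 2.33.

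The density did not rise or fall steadily by 1-Mb step towards the end. From the outermost step inward, the first 5 steps held 8.41, 7.29, 8.29, 8.71 and 7.59 regions per Mb as means over chromosomes. The 15 inner steps ran from 5.76 to 11.4 per Mb, so every one of the 5 end steps lay inside the range of the inner ones. The outermost step ranked seventh of 20, with 143 regions and 8.41 ± 4.06 per Mb (SD, n = 17). The densest of the 20 was the seventh step, between 6 and 7 Mb, with 194 regions and 11.4 ± 6.89 per Mb.

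Within the outermost step, regions were scarcest next to the end. In the first 100 kb 3 regions were listed, 1 each on chromosomes 4, 12 and 16, or 1.76 per Mb. Up to 250 kb there were 21 regions on 11 chromosomes, or 4.94 per Mb, and up to 500 kb 73 regions on 15 chromosomes, or 8.59 per Mb. The density of the ends as a whole was thus reached within 500 kb. Each value counts all regions from the end inward, so the stretch from 250 to 500 kb alone held more than 8.59 per Mb. How much of the outermost stretch is unsequenced or shared between ends was not measured here, so the low values there are not read as closed chromatin.

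The region nearest the end lay between 51.3 kb from it on chromosome 4 and 713.8 kb on chromosome 1, with a median of 188.6 kb over the 17 chromosomes. On chromosome 4 it spanned 798 bp (chr4:51309-52106), on chromosome 16 335 bp (chr16:60873-61207) and on chromosome 12 435 bp (chr12:95290-95724). These are the 3 outermost. On chromosome 19 the nearest lay at 506.7 kb (chr19:506663-508147) and on chromosome 1 further in (chr1:713780-714588). The gap on these 2 chromosomes was wider than on any of the other 15, where the nearest region lay within 271 kb. Regions are numbered along the list, and some numbers are missing. The name of the list also holds FilMappMitoBlack, which reads as filters for poorly mapping, mitochondrial and blacklisted stretches. No label spells this out or says whether the missing numbers come from it. Just before the first region, 1 number was missing on each of chromosomes 1, 8, 11 and 19, and 2 on chromosome 18. On chromosome 1, which opens the list, this number belongs to the end, and on the others it may also belong to the sequence listed before. Within the ends, 3 numbers were missing, 2 of them on chromosome 1 and 1 on chromosome 2, besides those before the first regions. The inner intervals, 3 times as long and with 2140 regions, had 6. Per Mb, more numbers were thus missing at the ends, from counts too small to compare. Missing numbers were therefore few beside the 685 regions listed.

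Counts in single steps had a smaller spread at the ends than inward of them. The 85 single end steps held 8.06 ± 5.09 regions (SD) with a highest count of 20, and the 255 inner steps 8.39 ± 6.40 with a highest count of 34. The variance was 3.22 times the mean at the ends and 4.88 times inward, where counts of regions placed independently would give a ratio of 1. Intervals for counting error are therefore too narrow for these regions in both places. No region was listed in 5 of the 85 end steps (5.88%) and in 23 of the 255 inner steps (9.02%).

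The fullest end step was the fifth of chromosome 3, with 20 regions, followed by 18 regions each in the third and the fifth step of chromosome 16 and in the third of chromosome 7. The step on chromosome 3 is the outer part of band 3p26.1, which continues past 5 Mb. The 5 empty steps were the fourth and the fifth of chromosome 8, the fourth of chromosome 5, the third of chromosome 10 and the second of chromosome 18. Genes are named as background to a band and were not assigned to regions, since a band holds many genes and no gene positions of hg19 were used.

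**Figure D2:**
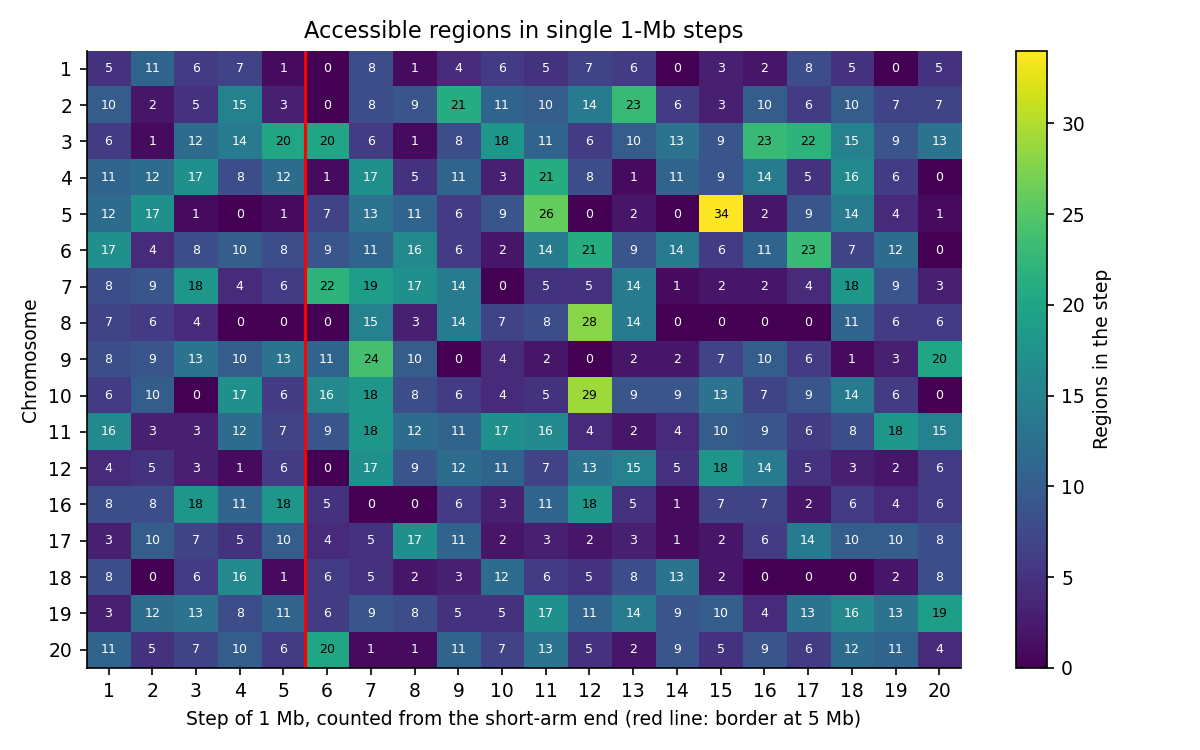
Number of accessible regions in each 1-Mb step (columns, counted from the short-arm end) of each chromosome (rows), with the count printed in each cell and shown by colour. Left of the red line lie the 85 steps of the first 5 Mb, with counts from 0 to 20. Right of it lie the 255 inner steps, with counts of up to 34.

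The longest stretch without a region that began in an end lay on chromosome 8 and measured 3.71 Mb (chr8:2557378-6263138), of which the part past 5 Mb is inner interval. It covers most of the dark band 8p23.2, known for CSMD1, one of the longest human genes, which encodes a complement-related membrane protein of the brain. Chromosome 5 followed with 2.84 Mb (chr5:2039043-4879753), which begins in 5p15.33, inward of a first and second step with 12 and 17 regions. This band is known for TERT, the catalytic subunit of telomerase. The third lay on chromosome 2 and measured 1.78 Mb (chr2:4581803-6364229), again reaching past 5 Mb. No region number was missing across any of these 3 stretches. Together they take in 3 of the 5 empty end steps.

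Light bands made up more of the ends than of the inner intervals, with 70.1% of the length against 45.1%. The darkest bands were absent from the ends and made up 10.5% of the inner intervals. Within light bands alone the ends were sparser, with 509 regions or 8.54 per Mb against 1160 regions or 10.1 per Mb. The ratio was 0.847 (0.762 to 0.941), and the light part of the end was sparser on 11 of 17 chromosomes and denser on 6. With each chromosome left out in turn the ratio ran from 0.790 without chromosome 16 to 0.882 without chromosome 12. The interval covers counting error only, and with variance above the mean it is too narrow.

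In the palest dark bands the ends held 6.80 regions per Mb against 7.45, a ratio of 0.913 (0.692 to 1.20). In the medium dark bands they held 8.65 against 7.66, a ratio of 1.13 (0.885 to 1.43). Neither ratio differed from 1 beyond counting error. The next darker class is present in the ends only as 8p23.2, with 3 regions in 2.80 Mb, so its ratio of 0.165 describes 1 band. At the inner density of each stain class the ends would hold 789.4 regions, and they held 0.868 times that number. The totals thus went together with a larger share of light bands and fewer regions per Mb within them.

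**Figure D3:**
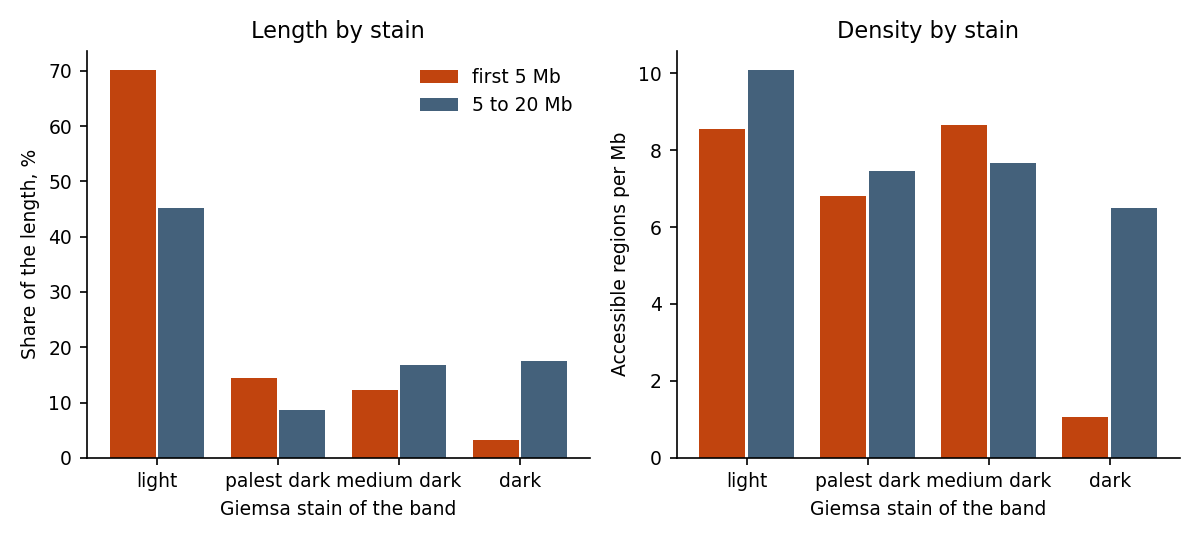
Share of the length (left) and accessible regions per Mb (right) by Giemsa stain of the band, for the first 5 Mb and for 5 to 20 Mb of 17 chromosomes. Light bands take 70.1% of the ends and 45.1% of the inner intervals, and hold 8.54 and 10.1 regions per Mb. The dark bar of the ends stands for 8p23.2 alone, and the darkest and centromeric bands, present only in the inner intervals, are not drawn.

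Among the 36 bands or parts of bands in the ends, the densest were 3p26.1 with 20 regions in 1.00 Mb, 9p24.1 with 7 regions in 0.400 Mb, or 17.5 per Mb, and 10p15.1 with 19 regions in 1.20 Mb, or 15.8 per Mb. Bands 3p26.1 and 9p24.1 continue past 5 Mb. Band 10p15.1 is known for KLF6, a zinc finger transcription factor. Among bands with more than 2 Mb in the ends, 4p16.3 stood just under 16p13.3, with 53 regions or 11.8 per Mb. This band is known for FGFR3, a growth factor receptor, NSD2, a histone methyltransferase, and HTT, the gene mutated in Huntington disease. The sparsest light band was 12p13.33, with 12 regions in 3.30 Mb, or 3.64 per Mb. It is known for CACNA1C, which encodes a calcium channel subunit of heart and brain. Light stain alone therefore covered a range from 3.64 to 17.5 regions per Mb at the ends, over pieces of unequal length. Among light bands with more than 2 Mb in the ends it ran from 3.64 to 12.6 per Mb. These bands were picked by rank after their values were seen.

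Regions at the ends were as wide as those inward of them to within counting error, over all scores. The median width was 781 bp (752 to 817) at the ends, with quartiles at 588 and 1101 bp. In the inner intervals it was 754.5 bp (734 to 780), with quartiles at 538 and 1075 bp. The difference of 26.5 bp had an interval of -12.1 to 67.9 bp. The end was wider on 9 of 17 chromosomes, and the difference per chromosome averaged 39.3 ± 104 bp (SD, n = 17). Of the single ends, chromosome 11 had the widest regions, with a median of 1006 bp against 756 bp inward, and chromosome 2 the narrowest, with 621 bp against 701 bp. Regions covered 0.718% of the ends and 0.732% of the inner intervals.

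Below the highest score, end regions were somewhat wider. The 283 such regions had a median width of 613 bp, against 554.5 bp for the 890 inward, a difference of 58.5 bp (21.8 to 94.1). It was positive on 12 of 17 chromosomes and averaged 50.4 ± 85.9 bp (SD, n = 17), with an SE over chromosomes of 20.8 bp. The comparison was made after the quartiles had been seen. At the highest score the medians were 972.5 and 958 bp, a difference of 14.5 bp (-62.7 to 84.9). Whether the difference in width depends on the score was not tested, and the interval at the highest score takes in the 58.5 bp found below it.

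Among the 5 widest end regions, the first lay in 20p13 (chr20:4793165-4796004) and spanned 2840 bp, and the next in 9p24.2 (chr9:3525193-3528012) spanned 2820 bp. The third, of 2713 bp, opened the cluster in 6p25.3 described below. The fourth was the outermost region of chromosome 10 (chr10:180162-182753), with 2592 bp in 10p15.3, and the fifth lay in 12p13.33 (chr12:860248-862787), with 2540 bp. All 5 had the highest score. The narrowest, of 233 bp, lay in 19p13.3 (chr19:3624174-3624406) and had a score of 576. Broad regions of at least 2000 bp made up 3.07% of the ends (21 regions, exact binomial interval 1.91 to 4.65%) and 2.71% of the inner intervals (58 regions, 2.06 to 3.49%). The intervals of these shares overlapped, and no interval of their difference was computed.

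The score did not separate the ends from the inner intervals. It was at its highest value for 402 of 685 end regions, or 58.7% (exact binomial interval 54.9 to 62.4%), and for 1250 of 2140 inner regions, or 58.4% (56.3 to 60.5%). The share was higher at the end on 8 chromosomes and lower on 9. Below the highest value the median score was 739 at the ends and 728 inward, and the lowest was 541 in both.

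Ends differed from each other in score more than inner intervals did. The share at the highest score ran from 37.1% at the end of chromosome 17 and 38.3% at that of chromosome 6 to 75.6% at that of chromosome 11. Its SD over chromosomes was 11.6 percentage points at the ends and 3.13 in the inner intervals. An end holds fewer regions than an inner interval of 3 times its length, and a share over fewer regions varies more. For chromosome 17 the exact binomial interval of the end, 21.5 to 55.1%, lay below the 60.2% of its inner interval. For chromosome 6 the interval, 24.5 to 53.6%, lay below 54.7%. For chromosome 11 the interval, 59.7 to 87.6%, lay just above 59.1%. On the other 14 chromosomes the interval of the end took in the inner share. The inner shares are taken here without their own counting error, so ends are set apart too readily. For chromosomes 6 and 11 the limit lay close to the inner share. The intervals are not adjusted for looking at 17 chromosomes.

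By step, the share at the highest score was largest in the outermost Mb, with 95 of 143 regions or 66.4% (58.1 to 74.1%), and 56.6% (52.4 to 60.9%) in the other 4 end steps together. These intervals overlap, which does not show that the shares are alike, and no interval of their difference was computed. The seventh step reached 65.5%. The outermost step was also second in median width, with 823 bp (743 to 914), after the 835 bp of the seventh.

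**Figure D4:**
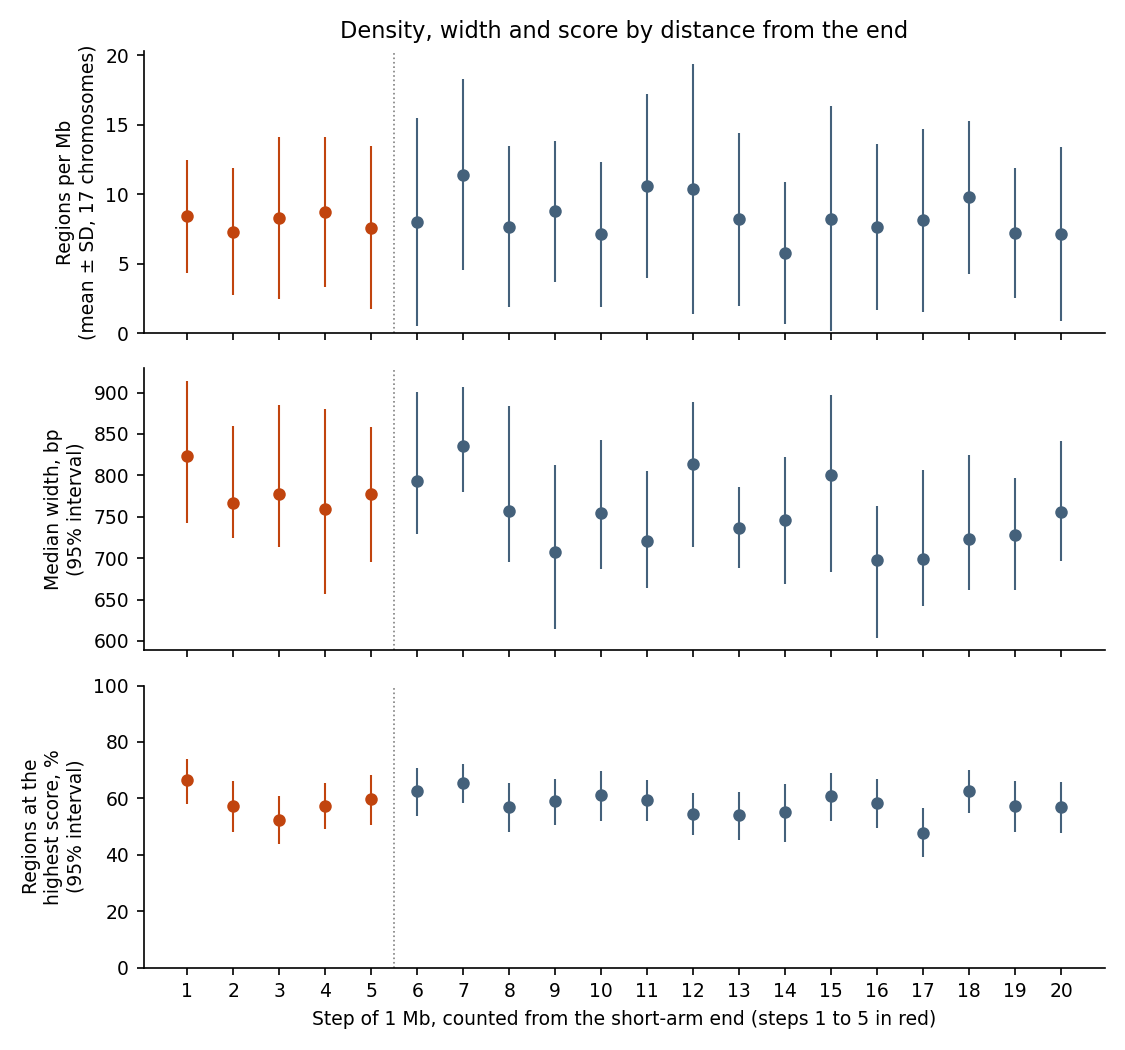
Regions per Mb (top, mean ± SD over 17 chromosomes), median width in bp (middle, 95% interval) and share of regions at the highest score in percent (bottom, exact 95% binomial interval) by 1-Mb step from the short-arm end. The 5 end steps (red) lie within the range of the 15 inner steps (blue) for density and width. The outermost step has the highest share at the highest score, 66.4%, just over the 65.5% of the seventh step.

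End regions stood further apart than inner ones. The median distance to the next region was 50.9 kb at the ends (quartiles 17.1 and 131.8 kb) and 42.2 kb inward (11.8 and 117.8 kb). A neighbour within 12500 bp was present for 239 end regions, or 34.9% (exact binomial interval 31.3 to 38.6%), and for 908 inner regions, or 42.4% (40.3 to 44.6%). The difference was -7.54 percentage points (-11.6 to -3.34). The share was lower at the end on 11 of 17 chromosomes and higher on 6, and the difference per chromosome averaged -7.62 ± 14.0 percentage points (SD, n = 17), with an SE over chromosomes of 3.39. Neighbours are counted in pairs or larger groups and are not independent, so the interval for counting error is too narrow. The share was compared after the distances had been seen.

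Single ends ranged from 0% of 30 regions with a near neighbour on chromosome 1 and 10.5% on chromosome 12 to 54.8% on chromosome 5 and 55.3% on chromosome 6. On chromosomes 6, 17 and 18 the end exceeded the inner interval by 10 percentage points or more. On chromosome 6 the values were 55.3% and 42.2%. On chromosome 8 they were 17.6% and 50.0%, on chromosome 12 10.5% and 36.5%, and on chromosome 20 17.9% and 42.2%. A low share did not always go with a sparse end, since chromosomes 1 and 20 had density ratios of 1.5 and 1.01, and chromosome 5, with a ratio of 0.674, had one of the highest shares.

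**Figure D5:**
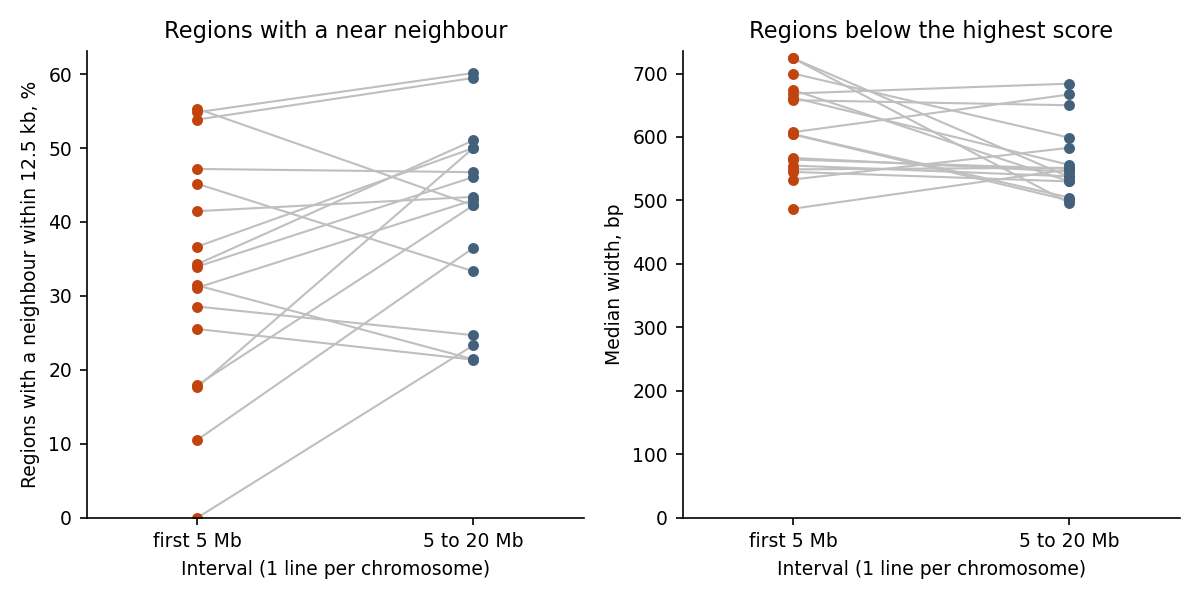
Share of regions with a neighbour within 12500 bp in percent (left) and median width in bp of regions below the highest score (right), in the first 5 Mb and at 5 to 20 Mb, with 1 line per chromosome. The share with a neighbour is lower at the end on 11 of 17 chromosomes, and the width is larger at the end on 12 of 17.

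Dense clusters, formed by 5 or more regions each within 12500 bp of the next, were rare both at the ends and inward of them. The ends had 3 clusters with 22 regions, or 0.353 per 10 Mb, against 16 clusters with 91 regions, or 0.627 per 10 Mb, in the inner intervals. They held 3.21% of the end regions (exact binomial interval 2.02 to 4.82%) and 4.25% of the inner regions (3.44 to 5.20%). The difference of -1.04 percentage points (-2.47 to 0.740) did not exceed counting error. Clusters lay on only 2 of the 17 ends, and without chromosome 6 the difference was -2.87 percentage points (-4.14 to -1.30). Clustered regions come in blocks of 5 or more and are not independent, so all these intervals are too narrow. Without chromosome 6 the share at the ends rests on 2 clusters of chromosome 3, so no difference is read from that interval.

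The cluster with most regions lay in 6p25.3 (chr6:291241-357702), where 11 regions followed one another over 66.5 kb. They were 614 to 2713 bp wide with a median of 1288 bp, against 781 bp for all end regions, and 8 of the 11 had the highest score. Band 6p25.3 is known for DUSP22, a phosphatase of lymphocyte signalling, and its neighbour IRF4, a transcription factor required for plasma cell formation. This cluster made up 11 of the 17 regions in the outermost step of chromosome 6, the fullest outermost step of all.

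The other 2 clusters lay on chromosome 3 and differed in score. In 3p26.2, 6 regions lay within 29.4 kb (chr3:3123557-3153005), with a median width of 596 bp, and 1 of the 6 had the highest score. The band is known for CRBN, the substrate receptor of a ubiquitin ligase. In 3p26.1, 5 regions lay within 20.4 kb (chr3:4872491-4892873), with a median width of 776 bp, and all 5 had the highest score.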

How the data were processed

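The deposited list has 6 columns and no header, and its positions are in hg19, per the submitters' processing notes. Without giving roles, these also name MACS2 2.1.0, BWA 0.7.13, bedtools 2.24.0, SAMtools 0.1.19, Trim Galore 0.3.3, Picard 1.92 and CASAVA 1.8.4. No label or header says whether read positions were moved by the transposase offset. The score is the authors' own and whole-numbered from 541 to 1000 in the deposited file, and was used only to filter and describe regions. Depth is unknown.

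Regions were placed by midpoint and bands came from circlize 0.4.16. Calculations ran in Python 3.11.15 (scipy 1.17.1, pandas 2.3.3, numpy 2.4.6), and matplotlib 3.10.9 drew the plots. Intervals at 95% are exact binomial for shares, conditional exact for ratios of densities, from order statistics for medians, and combined from single intervals (Wilson for shares) for differences. The density and width comparisons were tested on simulated lists of independently placed regions, and the joining into clusters on a small made-up list. Comparisons of shares in clusters or with a near neighbour were not tested in this way. The simulated counts lack the excess variance of the real ones, so they do not check the intervals for these data. With 1 list and no replicates, no p-values are given. Members, measures and alternatives were chosen with earlier results of these data known. Regions, clusters, ends, steps and gaps were named by rank, as stated beside them, and genes from textbook knowledge of the band. The chromosome of all 50 genes considered matched a RefSeq table of GRCh38.p14, whose coordinates were not used. No sequences are printed, since none of hg19 were used.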

Additional observations from a re-analysis of the deposited data

How the results depend on the processing

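Of 79 alternatives over 6 comparisons of ends with inner intervals, 76 stayed within the 95% interval of the reported value, 3 left it and 0 reversed a difference beyond counting error. Only the share with a near neighbour and the width below the highest score had such a difference, so the other comparisons could not be counted as reversed. Most alternatives reuse many of the same regions and are not independent checks. In light bands only, the density ratio fell from 0.960 to 0.847, with other settings between 0.887 and 0.998. Without chromosome 16 it was 0.906, the lowest with 1 chromosome left out, and its interval for counting error alone (0.827 to 0.992) no longer took in 1. The difference in the share of regions in clusters was 1.23 percentage points among regions at the highest score and -2.87 without chromosome 6, against -1.04. With the first 0.5 Mb left out it was -2.45 (-3.68 to -0.861), inside the reported interval although its own interval left out 0. This setting also takes out the cluster in 6p25.3. Clustered regions come in blocks and are not independent, so intervals for their share are too narrow, and no difference is read from them. The width difference ran from -5.50 bp against 5 to 10 Mb to 50.5 bp with ends of 2 Mb, and was 10.5 bp without chromosome 16. The difference in the share at the highest score ran from -2.68 to 3.76 percentage points, so neither has a settled direction. The share with a near neighbour was lower at the ends in all 15 alternatives run, with differences from -10.6 to -5.03 percentage points, and among regions at the highest score its interval reached 0.0910. Width below the highest score was 40.0 to 81.5 bp larger in all 11. The last 2 comparisons were chosen after seeing the data. No paired analysis was possible because both cultures share 1 list and 1 group, for which reason neither replicate could be left out. Depth is unknown, so a stretch without regions cannot be called closed.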

Other observations

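The long-arm ends of the same 17 chromosomes, looked at after the short-arm values were known, gave a similar density. Their last 5 Mb held 8.13 ± 3.16 regions per Mb (SD, n = 17), and the ratio to the stretch 5 to 20 Mb from that end was 0.961 (0.880 to 1.05). The long-arm end was denser than its inner stretch on 8 chromosomes and sparser on 9. The short-arm end was denser than the long-arm end on 9 chromosomes and sparser on 8, with 12 against 4.80 regions per Mb on chromosome 4 and 3.40 against 9.40 on chromosome 8. Regions at the long-arm ends were wider than inward of them by 56.0 bp in the median (16.6 to 95.8, counting error only), and below the highest score by 52.0 bp (7.72 to 109). The share with a near neighbour was 2.08 percentage points higher at the long-arm ends than inward of them (-2.10 to 6.33), where at the short-arm ends the difference was -7.54. Whether the arms differ was not tested.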
